A study of Mus musculus with 6 samples.

Results

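The genes described here are 40 ligands, extracellular modulators, receptors, SMAD proteins and ID targets of the bone morphogenetic protein (BMP) and transforming growth factor beta (TGF-beta) pathways, out of 47517 annotated gene symbols. They were taken by name from a fixed list, and all 40 were found. The list was chosen with earlier results of these data known. The study sequenced RNA of nascent hematopoietic cells sorted from mouse embryos at embryonic day 10.5. One group of 3 libraries came from the caudal region of the embryo (caudal cells) and the other group of 3 came from the yolk sac, the extraembryonic membrane where the first blood cells form. Cells of both groups were of strain C57BL/6, carried a tdTomato reporter knocked into the Hlf locus, and were sorted as positive for the reporter and for c-Kit and negative for CD45. Hlf encodes a transcription factor found in blood stem cells, c-Kit is the stem cell factor receptor and CD45 is the pan-leukocyte surface protein. Tissues were digested with 0.125% collagenase for 1 h at 37 °C, and each library came from a lysate of 100 cells. Whether the replicates of a tissue stem from different embryos is not in the labels, and the p-values below therefore speak only of the spread among these 6 libraries, which may be technical.

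BMP and TGF-beta ligands are secreted dimers that bring type I and type II serine-threonine kinase receptors together. BMP-type receptors phosphorylate SMAD1, SMAD5 and SMAD9, and the TGF-beta and activin receptors phosphorylate SMAD2 and SMAD3. These join SMAD4 and enter the nucleus, where they act on target genes such as the ID genes and on SMAD6 and SMAD7, which inhibit the pathway. In the embryo, BMP4 is known for its part in forming mesoderm and blood, and endothelial cells use endoglin and ALK1 as a receptor pair for circulating BMP ligands.

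Values are TPM, a unit of transcript abundance scaled by gene length and by the total of each library. The number of genes at or above 1 TPM ranged from 15644 to 16975, and of 12 hematopoietic marker genes 11 or 12 reached that level. Yolk sac replicates 1 and 2 stood apart in their content of yolk sac endoderm transcripts, from the absorptive epithelium that secretes serum proteins. The summed TPM of 14 endoderm markers was 13304 in the second yolk sac replicate, 755 in the first and 13.4 in the third. In the caudal cells it was 21.9 to 32.0. Most of these low sums was Trf, at 19.7 to 30.1 TPM in the caudal libraries and 10.2 TPM in yolk sac replicate 3. Afp was at 0.934 TPM in yolk sac replicate 3 and at most 0.0544 TPM in the caudal libraries. Spink1 was listed at 0 in yolk sac replicate 3 and reached 0.857 TPM in caudal replicate 3. Summed embryonic and other red cell markers (6 genes) were at 1353 TPM in yolk sac replicate 2 and at 6.11 to 18.5 TPM in the other libraries. Several results that touch this library are therefore also given without it. The 8 macrophage markers summed to 17.3 to 26.1 TPM in the caudal cells and 22.2 to 27.5 TPM in the yolk sac, where C1qa was listed at 0 in all 6 libraries and Adgre1 was at 0.106 TPM or less. In that list Cd68 and Csf1r were at 4.96 to 18.1 TPM in all libraries, Cx3cr1 was under 1 TPM and higher in every yolk sac library, and Mrc1, a scavenger receptor gene, rose in the yolk sac (means of 0.173 and 2.81 TPM, limma adjusted p = 0.0192).

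Bmper was the only pathway gene among the 40 to pass the test for a difference between the tissues, and it rose in the caudal cells. The tissues were compared by limma on log2(TPM + 1) over the 16436 genes that reached 1 TPM in at least 3 libraries. Of the 40 genes 26 were tested, of which 1 was higher in the caudal cells, 0 were higher in the yolk sac and 25 did not pass (Benjamini-Hochberg adjusted p threshold 0.05). The share of all tested genes that passed was 0.347% for higher in the caudal cells and 0.0365% for higher in the yolk sac. At an unadjusted p under 0.05 the counts were 9 and 0 of the 26 genes, where the counts over all tested genes were 1258 and 325. Caudal and yolk sac libraries did not overlap for 10 of the 26, all higher in the caudal cells, beside 11.5% of all tested genes. None of the 26 was higher in all yolk sac libraries, beside 4.14% of all tested genes. The sign was toward the caudal cells for 20 of the 26 (62.0% of all tested genes) and toward the yolk sac for 6 (38.0%). The median difference of the 26 was 0.41 on the log2 scale against 0.09 over all tested genes. Bmp4, Bmper and Acvrl1 reached 1 TPM in all 3 caudal libraries and in no yolk sac library, so they were tested only because they were high in 1 tissue. The other 14 genes reached 1 TPM in at most 1 library.

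**Figure D1:**
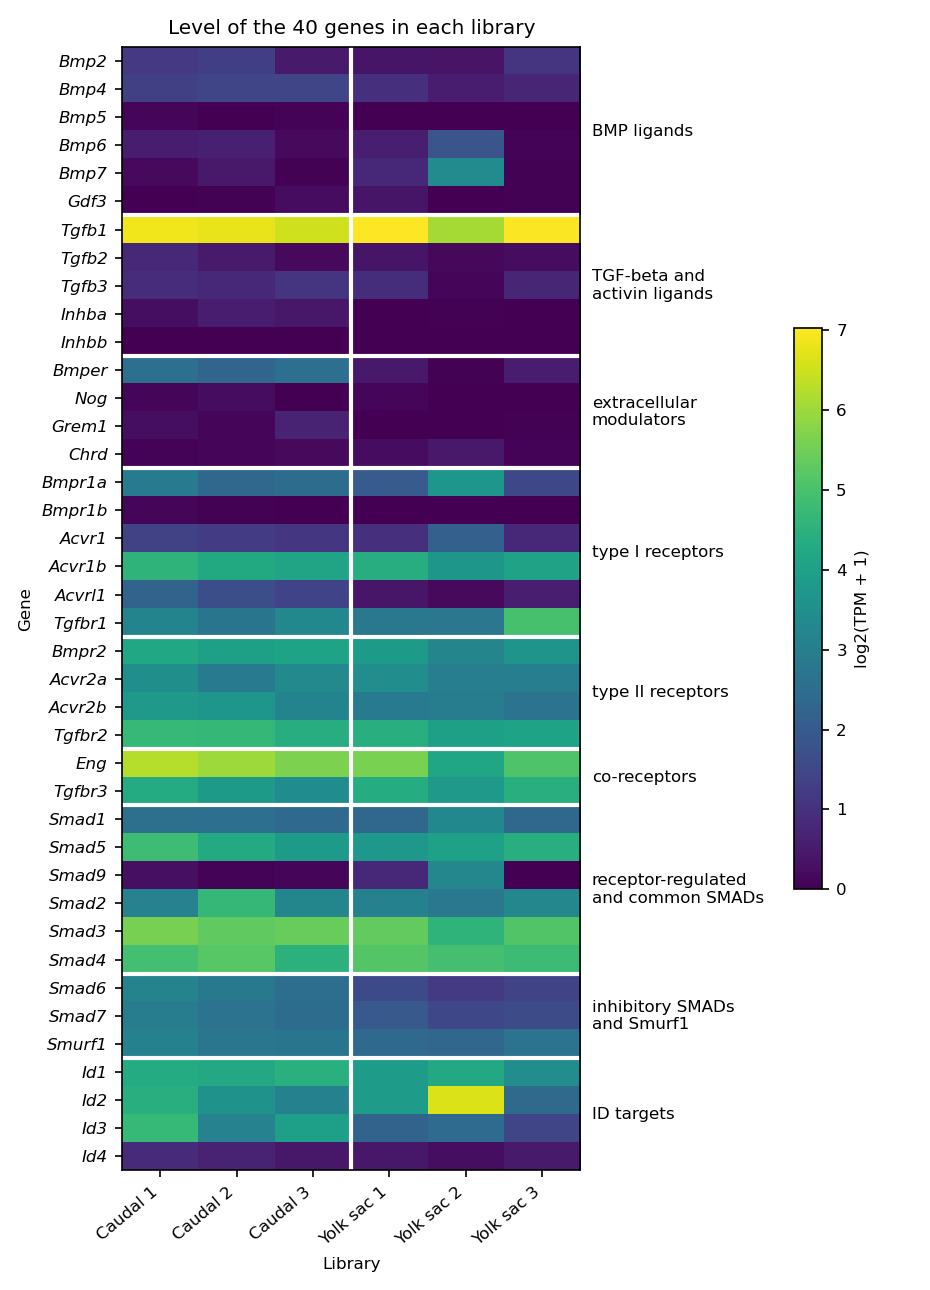
Level of each of the 40 genes (rows, grouped by pathway step) in the 6 libraries (columns), as log2(TPM + 1) by colour from 0 (dark) to the highest value (yellow). Tgfb1 is the most abundant gene in each library except yolk sac replicate 2, where Id2 is, and Bmp7, Smad9 and Id2 are each brightest in that library.

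BMP ligand genes were weakly expressed in both tissues. Bmp4, which encodes a ligand needed for mesoderm and blood formation, was at 1.53, 1.78 and 1.76 TPM in caudal replicates 1 to 3 and at 0.953, 0.473 and 0.683 TPM in yolk sac replicates 1 to 3. All caudal values were above all yolk sac values, by 0.67 on the log2 scale (SE 0.21). The difference did not pass (limma adjusted p = 0.344). Leaving out yolk sac replicate 2 gave 0.57 (limma adjusted p = 0.469). Bmp2, a related ligand gene, was between 0.416 and 1.49 TPM in the caudal cells and between 0.282 and 1.10 TPM in the yolk sac, with overlapping groups. Bmp7, a ligand gene of many epithelia, was at 0.141, 0.398 and 0.0298 TPM in the caudal libraries and at 0.745, 9.39 and 0.0304 TPM in the yolk sac libraries. Only yolk sac replicate 2 was above 1 TPM for Bmp7, and the same held for Bmp6, another BMP ligand gene, at 2.64 TPM there against 0.051 to 0.546 TPM elsewhere. Bmp5 and Gdf3, further ligand genes of the family, did not exceed 0.321 TPM in any library.

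Tgfb1 made up nearly all TGF-beta and activin ligand transcripts in both tissues. The gene, which encodes the TGF-beta form made by blood and endothelial cells, was at 115.8, 110.4 and 90.3 TPM in the caudal libraries and at 129.5, 66.2 and 125.1 TPM in the yolk sac libraries. Its share of the summed TPM of the 5 ligand genes was between 98.2% and 99.6% in the 6 libraries. The groups overlapped because yolk sac replicate 2 was lowest, and the log2 difference was 0.03 (SE 0.27, limma adjusted p = 0.981). Without that library the yolk sac values were all above the caudal ones, with a difference of -0.28 that did not pass (adjusted p = 0.715). Tgfb2 and Tgfb3, the other TGF-beta ligand genes, were at 0.114 to 0.741 and 0.0964 to 1.10 TPM. Inhba, which encodes a subunit of activin A, was at 0.200, 0.491 and 0.370 TPM in the caudal libraries, at 0.0313 TPM in yolk sac replicate 2, and listed at 0 in yolk sac replicates 1 and 3. These values did not overlap but lay under the filter and were not tested. Inhbb, a second activin subunit gene, was at 0.0177 TPM or less.

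Among the extracellular modulators, Bmper rose in the caudal cells and was below 1 TPM in every yolk sac library. BMPER is a secreted protein that binds BMPs and tunes their activity around endothelial cells. Its gene was at 4.94, 3.92 and 4.88 TPM in the caudal libraries and at 0.390, 0.0325 and 0.460 TPM in the yolk sac libraries. The lowest caudal value was thus above every yolk sac value. The means were 4.58 ± 0.576 TPM (SD, n = 3) and 0.294 ± 0.229 TPM (SD, n = 3), a log2 difference of 2.12 (SE 0.23), or 4.34-fold on the log2(TPM + 1) scale, which understates changes of weakly expressed genes. Limma's adjusted p was 0.0151, rank 16 of the 16436 genes by p, and an exact two-sided permutation test gave 0.1, the smallest p that 3 against 3 libraries allow. Without yolk sac replicate 2 the difference was 1.96 (adjusted p = 0.0226). The call was lost without caudal replicate 1 (adjusted p = 0.0975), caudal replicate 3 (0.0804) or yolk sac replicate 1 (0.0576), where the difference stayed between 2.07 and 2.18. In such bulk samples, fewer cells that express a gene and less RNA of it per cell cannot be told apart. Bmper lies on chromosome 9 (23223076 to 23485200, GRCm38, plus strand), and no exon of another gene overlaps its exons. The antagonist genes Nog, Grem1 and Chrd, which encode secreted proteins that bind BMPs, were between 0 and 0.608 TPM, and Grem1 was at 0.194, 0.0726 and 0.608 TPM in the caudal libraries against 0.0298 TPM in yolk sac replicate 3 and listed at 0 in the other yolk sac libraries.

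Summed levels of the endothelial, smooth muscle and hematopoietic marker lists were higher in every caudal library than in every yolk sac library. The 15 endothelial markers, such as Cdh5 and Tie1, summed to 545 to 701 TPM in the caudal libraries and 155 to 325 TPM in the yolk sac libraries. All 15 were toward the caudal cells (62.0% of all tested genes), and 13 did not overlap (11.5%). Of the 15, 4 passed toward the caudal cells (0.347%). These were Cdh5, Vwf, Clec14a and Mmrn2 (limma adjusted p of 0.0114, 0.0114, 0.0193 and 0.0393). Between 9 and 15 of the 15 markers reached 1 TPM in a library, and no library listed one at 0. The mesenchyme and smooth muscle list (12 genes) summed to 47.3 to 58.5 TPM in the caudal libraries and 8.15 to 9.20 TPM in the yolk sac libraries. Of its 6 tested genes 2 rose in the caudal cells, both genes of the contractile apparatus. Acta2, the smooth muscle actin gene, was at 26.1, 35.8 and 36.6 TPM in the caudal libraries and at 1.18, 1.07 and 2.57 TPM in the yolk sac libraries (limma adjusted p = 0.0031). Myl9, a myosin light chain gene, had means of 9.37 and 0.214 TPM (adjusted p = 0.0114), and Tagln, an actin-binding protein gene, had means of 5.01 and 1.08 TPM without overlap. The fibroblast collagen genes Col1a1 and Col3a1 were at 0.0905 TPM or less in all libraries but caudal replicate 1. There they were at 0.438 and 1.25 TPM. Lum was at 0.0684 TPM or less, and Pdgfra was at 2.29 TPM in caudal replicate 1 and at most 0.522 TPM elsewhere. Other genes of the list were present in both tissues, with overlap. Col1a2, another collagen gene, was at 0.399 to 1.696 TPM, Postn at 0.903 to 2.67 TPM and Pdgfrb at 0.736 to 1.504 TPM. Twist1 was at 0.747 to 3.96 TPM, with a difference toward the yolk sac that did not pass (-0.51, limma adjusted p = 0.684). Hematopoietic markers (12 genes) also summed higher in the caudal libraries, at 495 to 726 TPM against 207 to 488 TPM. Of the 12, 11 were toward the caudal cells (62.0% of all tested genes). Their median difference was 0.71, and 0.32 without yolk sac replicate 2. Gfi1, a transcriptional repressor gene of blood stem cells, passed the test (means of 23.1 and 1.82 TPM, limma adjusted p = 0.0114). The part of endothelial, mesenchymal and hematopoietic content in the pathway differences was not tested.

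**Figure D2:**
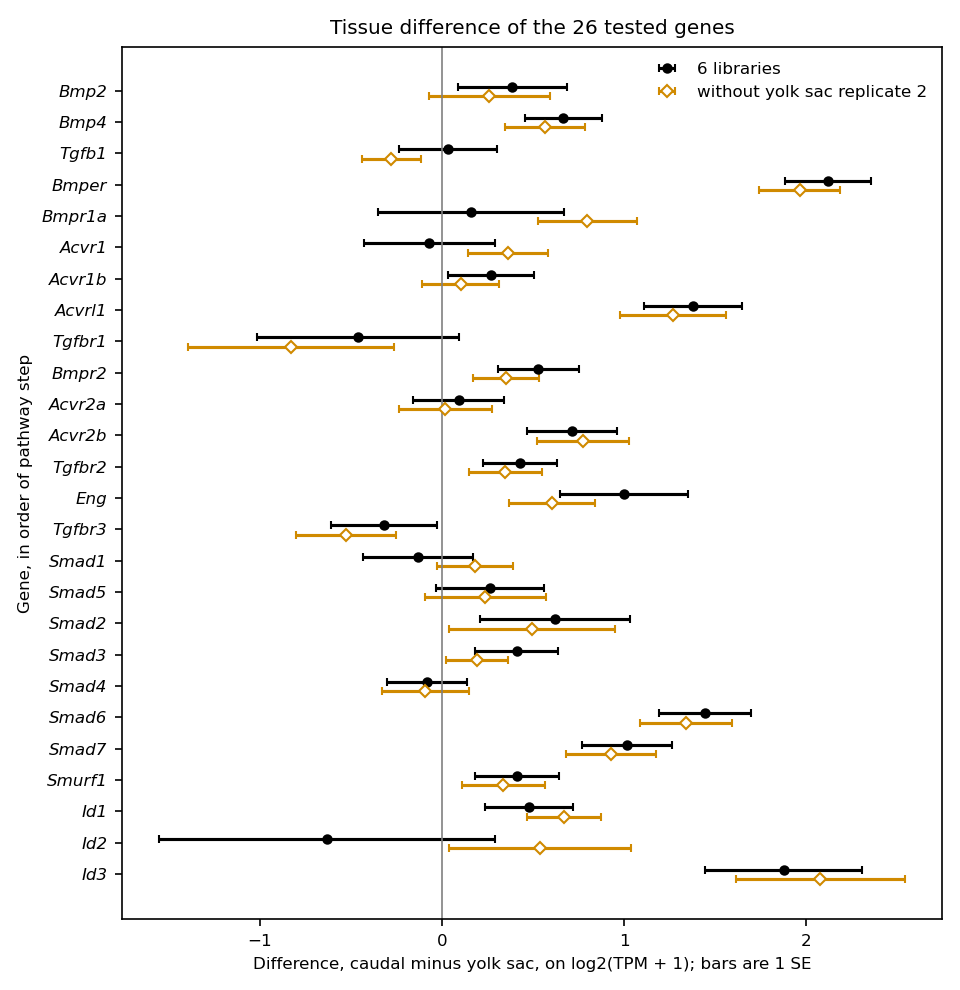
Difference between caudal and yolk sac cells for the 26 tested genes on the log2(TPM + 1) scale, with 1 SE, from all 6 libraries (filled circles) and without yolk sac replicate 2 (open diamonds). With all 6 libraries Bmper lies farthest to the right at 2.12, and Id2 moves from -0.63 to 0.54 when yolk sac replicate 2 is left out.

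Type I receptor genes differed in their tissue pattern. Acvrl1, which encodes ALK1, the endothelial type I receptor for circulating BMPs, was at 3.74, 2.23 and 1.68 TPM in the caudal libraries and at 0.352, 0.141 and 0.512 TPM in the yolk sac libraries. The groups did not overlap, and the log2 difference of 1.38 (SE 0.27) did not pass (limma adjusted p = 0.0923). Leaving out yolk sac replicate 2 gave 1.27 (limma adjusted p = 0.17). Acvr1b, the activin receptor gene, was the most abundant type I receptor in 5 of the 6 libraries. It was at 22.6, 18.5 and 16.1 TPM in the caudal libraries and at 19.6, 12.1 and 15.7 TPM in the yolk sac libraries, so the groups overlapped. Tgfbr1, the TGF-beta type I receptor gene, was at 5.68 to 8.81 TPM in 5 libraries and at 30.7 TPM in yolk sac replicate 3. It made up 62.1% of the summed type I receptor TPM in that library, against 17.6% to 27.1% in the others. Its difference was -0.46 (SE 0.56, adjusted p = 0.83), and 0.27 without yolk sac replicate 3.

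Bmpr1a and Acvr1 were highest in yolk sac replicate 2. Bmpr1a, which encodes the main type I receptor for BMP2 and BMP4, was at 6.32, 4.06 and 4.65 TPM in the caudal libraries and at 3.08, 11.9 and 1.85 TPM in the yolk sac libraries. Acvr1, which encodes the BMP type I receptor ALK2, was at 1.57, 1.36 and 1.16 TPM in the caudal libraries and at 0.920, 3.48 and 0.750 TPM in the yolk sac libraries. In yolk sac replicates 1 and 3 both genes were below all caudal values. Without yolk sac replicate 2 the differences were 0.80 (limma adjusted p = 0.401) and 0.36 (adjusted p = 0.724), against 0.16 and -0.07 with it. Bmpr1b, another BMP type I receptor gene, was at 0.0764 TPM or less.

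All 4 type II receptor genes were expressed in every library, and none passed the test. Bmpr2, the BMP-specific type II receptor gene, was at 17.04, 15.1 and 15.8 TPM in the caudal libraries and at 13.2, 8.19 and 11.4 TPM in the yolk sac libraries. Acvr2b, an activin and BMP type II receptor gene, was at 12.9, 12.04 and 7.97 TPM in the caudal libraries and at 6.44, 6.79 and 5.36 TPM in the yolk sac libraries. For both genes the groups did not overlap, with log2 differences of 0.53 (SE 0.22, limma adjusted p = 0.507) and 0.72 (SE 0.25, adjusted p = 0.398). Tgfbr2, the TGF-beta type II receptor gene, was the most abundant of the 4 at 19.7 to 25.1 TPM in the caudal cells and 14.9 to 20.1 TPM in the yolk sac, with overlap. Acvr2a, the other activin type II receptor gene, had a difference of 0.09 (adjusted p = 0.937). Tgfbr2 made up 37.6% to 42.4% of the summed TPM of this step over the 6 libraries.

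The co-receptor genes Eng and Tgfbr3 had opposite signs. Eng encodes endoglin, which presents BMP ligands to ALK1 on endothelial and early hematopoietic cells. It was at 74.4, 62.6 and 48.7 TPM in the caudal libraries and at 47.6, 16.9 and 33.2 TPM in the yolk sac libraries. The groups did not overlap, but caudal replicate 3 and yolk sac replicate 1 differed by little, and the log2 difference of 1.00 (SE 0.35) did not pass (limma adjusted p = 0.419). Without yolk sac replicate 2 it was 0.61 (adjusted p = 0.478). Tgfbr3 encodes betaglycan, the co-receptor for TGF-beta2 and inhibin. It was at 19.1, 13.3 and 9.69 TPM in the caudal libraries and at 19.3, 12.6 and 20.6 TPM in the yolk sac libraries, with overlap (difference -0.32, SE 0.29, adjusted p = 0.772). Within a library the makeup of the pair does not depend on how libraries were scaled. Eng made up 79.6%, 82.5% and 83.4% of the pair's summed TPM in the caudal libraries and 71.2%, 57.3% and 61.8% in the yolk sac libraries, which did not overlap. Eng lies on chromosome 2 (32646595 to 32682669) and Acvrl1 on chromosome 15 (101128522 to 101145336).

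**Figure D3:**
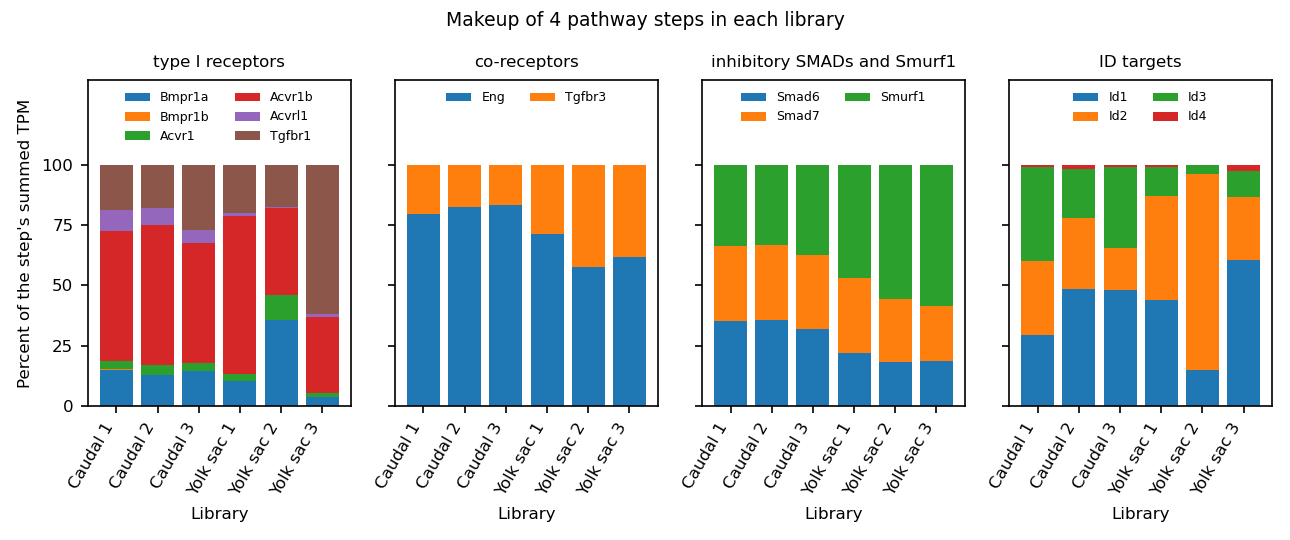
Share of each gene in the summed TPM of its pathway step (vertical axis, percent) in each of the 6 libraries, for type I receptors, co-receptors, inhibitory SMADs with Smurf1, and ID genes. The shares of Acvrl1, Eng, Smad6 and Id3 in their steps are higher in every caudal library than in every yolk sac library. Those of Tgfbr3 and Smurf1 are lower in every caudal library.

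Of the signal-carrying SMAD genes 5 were tested, and for all 5 the tissues overlapped and the test was not passed. Smad3, the TGF-beta and activin effector gene, was the most abundant in each library except yolk sac replicate 2, where Smad4 was higher at 29.8 TPM. Smad3 was at 46.96, 39.0 and 40.8 TPM in the caudal libraries and at 39.8, 22.9 and 34.0 TPM in the yolk sac libraries. Its log2 difference was 0.41 (SE 0.23, limma adjusted p = 0.623), and that of Smad4, the shared partner, was -0.08 (SE 0.22, adjusted p = 0.937). Smad2, the other TGF-beta effector gene, was at 24.8 TPM in caudal replicate 2 and at 5.98 to 8.59 TPM in the other 5 libraries. Of the BMP effector genes, Smad5 was at 12.5 to 27.8 TPM and Smad1 at 4.04 to 8.67 TPM, both with overlap. Smad1 was highest in yolk sac replicate 2. Smad9, another BMP effector gene, was at 8.52 TPM in that library, 0.717 TPM in yolk sac replicate 1 and at most 0.230 TPM in the other libraries.

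The inhibitory SMAD genes were higher in every caudal library than in every yolk sac library, though neither passed the test with all libraries. Smad6, which encodes an inhibitor of BMP receptors and SMAD1, was at 7.87, 6.23 and 4.82 TPM in the caudal libraries and at 1.99, 1.29 and 1.70 TPM in the yolk sac libraries. Its means were 6.31 ± 1.52 and 1.66 ± 0.352 TPM (SD, n = 3 each). The log2 difference was 1.45 (SE 0.25), 2.72-fold on that scale, with a limma adjusted p of 0.0646. It passed in only 3 of 17 alternatives and did not pass in the others, where its adjusted p ranged up to 0.35. Those 3 were quantile normalization (adjusted p = 0.045), median centring (0.0395) and array weights (0.0035). Smad7, which encodes an inhibitor of both TGF-beta and BMP receptors, was at 6.85, 5.42 and 4.65 TPM in the caudal libraries and at 2.86, 1.88 and 2.09 TPM in the yolk sac libraries (difference 1.02, SE 0.25, adjusted p = 0.188). Smurf1, a ubiquitin ligase that removes SMAD1 and receptors, was at 7.56, 5.82 and 5.70 TPM against 4.28, 3.96 and 5.34 TPM, a smaller difference of 0.41 (SE 0.23, adjusted p = 0.628) without overlap. When yolk sac replicate 2 was left out, the differences of Smad6 and Smad7 were 1.34 and 0.93 (limma adjusted p of 0.105 and 0.245). Within this step the share of Smad6 was 35.3%, 35.6% and 31.8% in the caudal libraries. In the yolk sac libraries it was 21.8%, 18.1% and 18.6%.

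**Figure D4:**
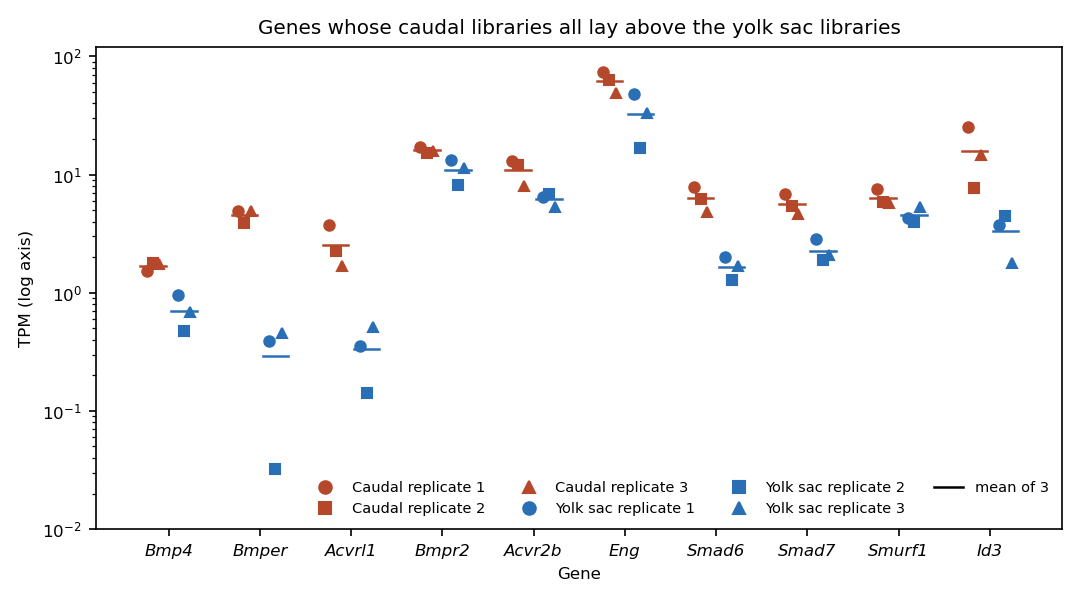
TPM in each library (log axis) of the 10 tested genes, shown because their caudal libraries (red, left) all lay above their yolk sac libraries (blue, right); short lines are means of 3. The gap is widest for Bmper, and for Eng, Smurf1, Bmpr2 and Acvr2b the nearest libraries of the tissues lie close together.

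The start regions are shown for Bmper, Id3 and Smad6, which had the 3 largest differences, because the inhibitory SMAD and ID genes are known SMAD targets. The sequences are from RefSeq on GRCm38.p6, where 29 of the 40 genes had an entry, and run 5′ to 3′ from 250 bases before to 20 bases after the transcription start. Capitals mark matches to 3 motifs searched on both strands of the full windows (250 bases before to 50 after the start). The Smad6 window is chr9:64022040-64022309 (minus strand), that of Bmper chr9:23222826-23223095 (plus strand) and that of Id3 chr4:136143572-136143841 (plus strand). GENCODE starts the Id3 gene at 136143497, so the Id3 window lies inside that gene and the bases upstream of that start were not searched.
Smad6: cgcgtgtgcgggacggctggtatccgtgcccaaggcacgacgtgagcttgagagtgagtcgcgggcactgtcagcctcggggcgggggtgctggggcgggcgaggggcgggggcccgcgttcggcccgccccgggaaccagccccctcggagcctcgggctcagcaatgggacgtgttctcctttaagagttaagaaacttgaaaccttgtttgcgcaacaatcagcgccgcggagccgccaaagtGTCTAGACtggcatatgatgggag
Bmper: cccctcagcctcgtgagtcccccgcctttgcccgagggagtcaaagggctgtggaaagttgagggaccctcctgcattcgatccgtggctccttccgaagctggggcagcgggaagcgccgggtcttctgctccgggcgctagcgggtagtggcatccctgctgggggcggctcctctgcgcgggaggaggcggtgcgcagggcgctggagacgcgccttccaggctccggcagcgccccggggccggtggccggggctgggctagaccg
Id3: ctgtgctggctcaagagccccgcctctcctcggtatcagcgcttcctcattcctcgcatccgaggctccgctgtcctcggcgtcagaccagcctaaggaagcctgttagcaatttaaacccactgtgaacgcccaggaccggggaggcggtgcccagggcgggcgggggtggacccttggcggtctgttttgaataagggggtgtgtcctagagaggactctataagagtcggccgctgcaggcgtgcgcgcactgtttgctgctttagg
The Smad6 window holds GTCTAGAC, the palindromic SMAD-binding element, from position 247 of the window, so that it spans the start site. That motif is found in 70 of 32851 promoter windows of the same length (0.213%) and in 1 of the 34 windows of these genes. The Bmper and Id3 windows hold none of the 3 motifs. CAGACA, a SMAD element with a flanking base, was in 6 of the 34 windows (Bmp5, Bmpr1b, Chrd, Smurf1, Tgfb2 and Tgfbr1) and in 6913 of the 32851 windows (21%). GGCGCC, a GC element of BMP-responsive enhancers, was in 11 of the 34 windows and in 11.9% of all windows. The 11 came from 10 genes, Acvr1b, Bmpr1a, Bmpr2, Chrd, Grem1, Id2, Id4, Smad5, Smad9 and Tgfbr1. Windows of Smad5 that overlap each other were counted separately, and GC content was not matched between the 34 and all windows. These counts describe letters in short windows and show no binding.

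The ID genes encode helix-loop-helix proteins that block differentiation factors, and they are widely used as readouts of BMP signalling. Id3 was at 25.3, 7.63 and 14.6 TPM in the caudal libraries and at 3.71, 4.49 and 1.77 TPM in the yolk sac libraries. The groups did not overlap, but the caudal values spread over a wide range, with means of 15.9 ± 8.90 and 3.32 ± 1.40 TPM (SD, n = 3 each). The log2 difference of 1.88 (SE 0.43), 3.67-fold on that scale, did not pass (limma adjusted p = 0.168). Id1 was more even, at 19.2, 17.98 and 20.97 TPM in the caudal libraries and at 13.9, 18.1 and 9.95 TPM in the yolk sac libraries, where replicate 2 reached the caudal range (difference 0.48, SE 0.24, adjusted p = 0.583). Without that library the groups of Id1 did not overlap, and the difference was 0.67 (adjusted p = 0.336). Id2 was at 20.04, 11.01 and 7.54 TPM in the caudal libraries and at 13.8, 100.2 and 4.36 TPM in the yolk sac libraries. Its sign therefore turned on 1 library, from -0.63 (SE 0.92, adjusted p = 0.865) to 0.54 without yolk sac replicate 2 (adjusted p = 0.853). Id4 was at 0.196 to 0.802 TPM and was not tested. Id2 made up 81.5% of summed ID transcripts in yolk sac replicate 2, while Id1 was the largest share in caudal replicates 2 and 3 and in yolk sac replicates 1 and 3. Id3 lies on chromosome 4 (136143497 to 136145755), Smad6 on chromosome 9 (63953076 to 64022059) and Id2 on chromosome 12 (25093799 to 25097140).

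In yolk sac replicate 2, the library with the most endoderm transcripts, 14 of the 26 tested genes (53.8%) were at their lowest and 4 at their highest, and 8 were neither. Of all tested genes 45.0% were lowest there, so these shares were near the background. Those highest there were Bmpr1a, Acvr1, Smad1 and Id2 (15.4%, beside 15.8% of all tested genes) and, among the genes not tested, Bmp6, Bmp7, Smad9 and Chrd. Of these genes, Bmp7, Smad9, Bmp6, Id2, Bmpr1a, Acvr1 and Chrd followed the order of the endoderm marker Afp across the yolk sac libraries. Smad1 did not. Id1, Id3 and Acvr2b, which were highest in a caudal library, had the same order within the yolk sac. The 8 genes were picked as highest in yolk sac replicate 2, where Afp is highest too. For them only the order of yolk sac replicates 1 and 3 was therefore free. How many of all tested genes share the order of Afp was not tested. Afp had 312, 6114 and 0.934 TPM in the yolk sac libraries, Bmp7 had 0.745, 9.39 and 0.0304 TPM, and Smad9 had 0.717 and 8.52 TPM and was listed at 0 in the last. The part of endoderm cells in these values was not tested. Without that library 14 of the 26 did not overlap toward the caudal cells (14.7% of all tested genes) and Tgfb1 and Tgfbr3 did not overlap toward the yolk sac (10.2%). The sign was toward the caudal cells for 22 of the 26 (52.4%) and toward the yolk sac for 4 (47.6%). Among the 26, Bmper alone passed in that fit as well (0.335% of all tested genes for higher in the caudal cells, 0.0365% for higher in the yolk sac). With all 6 libraries, caudal replicate 1 was the highest library for 14 of the 26 (53.8%, beside 34.1% of all tested genes). It was the lowest for 0 of them (3.43% of all tested genes).

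**Figure D5:**
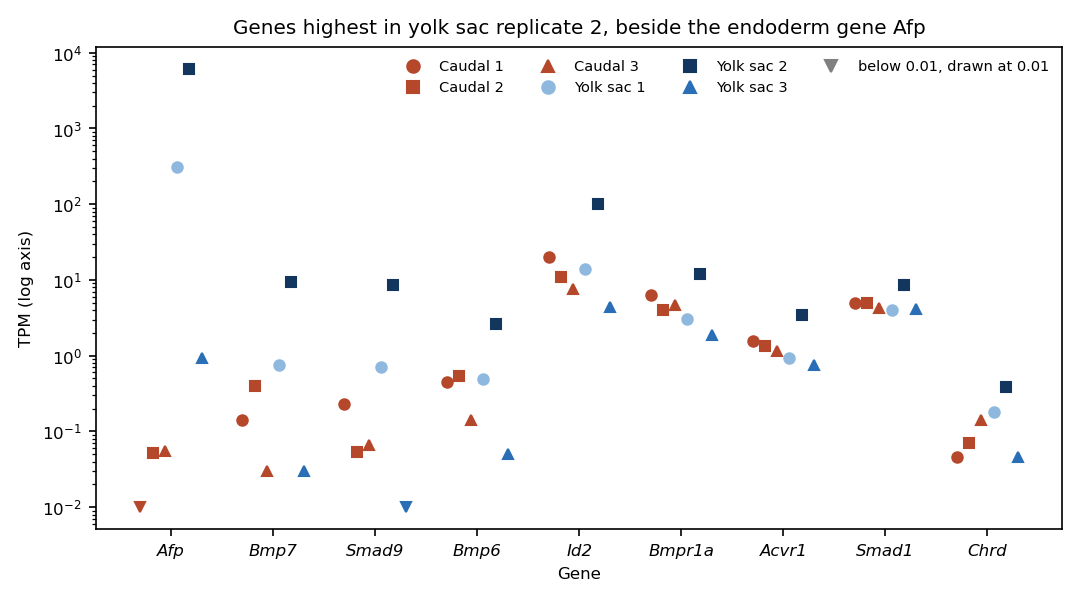
TPM in each library (log axis) of the 8 genes of the set that were highest in yolk sac replicate 2 (darkest squares), beside the endoderm gene Afp; triangles pointing down mark values below 0.01. Bmp7 and Smad9 stand at 9.39 and 8.52 TPM in that library, and under 1 TPM in the other 5.

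A further 90 genes of the same pathways were examined, of which 42 were tested, 1 rose in the caudal cells, 0 passed toward the yolk sac and 41 did not pass. At an unadjusted p under 0.05 the counts were 12 and 0. Their median difference was 0.31, and 15 of the 42 did not overlap, all toward the caudal cells, beside the 0.347% called and 11.5% without overlap in that direction over all tested genes. Hey1, a transcriptional repressor gene that answers to Notch as well as to BMP signals, was at 9.03, 7.24 and 7.47 TPM in the caudal libraries and at 0.826, 0.219 and 0.380 TPM in the yolk sac libraries (log2 difference 2.61, SE 0.25, limma adjusted p = 0.0114). Hey1, Sost and Tll1 stayed below 1 TPM in every yolk sac library, so they too were tested only because they were high in the caudal cells. Leaving out caudal replicate 1 or caudal replicate 3 ended the call (adjusted p of 0.0675 and 0.055). Without yolk sac replicate 2 the count of genes that rose in the caudal cells was 3 (Hey1, Fn1 and Fstl1).

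Extracellular modulators outside the set showed the largest median difference of these lists. All 8 tested had positive signs (62.0% over all tested genes; median 1.35) and 6 did not overlap (11.5%), Sost and Tll1 among them, though 0 of the 8 passed by limma and 5 had an unadjusted p under 0.05. Fstl1, a secreted follistatin-like protein gene, was at 35.1, 28.3 and 25.8 TPM in the caudal libraries and at 10.9, 3.67 and 9.48 TPM in the yolk sac libraries (adjusted p = 0.0862). It passed without yolk sac replicate 2 (adjusted p = 0.0399). Sost, which encodes the BMP and Wnt antagonist sclerostin, had means of 1.80 and 0.111 TPM (adjusted p = 0.0594). Tll1, a protease gene whose product cleaves the antagonist chordin, had means of 2.31 and 0.222 TPM (adjusted p = 0.116). Bmp1, a protease gene of the same family that was counted among the 23 other ligands, was at 10.6 to 15.5 TPM against 2.64 to 5.59 TPM (adjusted p = 0.119). Ltbp1 and Lrrc32, chosen after their values were seen because their proteins hold latent TGF-beta, had means of 13.9 against 3.39 TPM (adjusted p = 0.177) and 5.86 against 0.773 TPM (adjusted p = 0.159).

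None of the other tested ligand and intracellular regulator genes passed. Bmp8a and Gdf11, further ligand genes, had differences of 0.15 and 0.13. Of 20 tested intracellular regulators 0 passed by limma and 2 had an unadjusted p under 0.05, with a median of 0.12. The SMAD corepressor genes Skil and Ski had differences of 0.79 and 0.46, both without overlap, and the Wnt cofactor gene Bcl9 of 0.49, while Nedd4l, Usp9x and Ppm1a, which encode a ubiquitin ligase, a deubiquitinase and a phosphatase that act on SMADs, were at -0.28, -0.20 and -0.19 (adjusted p of these 6 from 0.361 to 0.795). Fn1, the fibronectin gene and a TGF-beta target, was at 434, 350 and 369 TPM in the caudal libraries and at 93.7, 254 and 66.4 TPM in the yolk sac libraries, the highest of the latter being yolk sac replicate 2. Its difference was 1.71 (SE 0.43, adjusted p = 0.208) and passed without that library (2.26, adjusted p = 0.0104). Cyr61, a matrix protein gene, and Gata2, a transcription factor gene of blood stem cells, had differences of 1.06 and 0.74 that did not pass. Ctgf, another matrix protein gene, had a difference of -0.14 (adjusted p = 0.952).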

How the data were processed

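RNA from 100 sorted cells a library was sequenced in 3 caudal and 3 yolk sac libraries, grouped by the tissue label. The submitters' processing notes name HISAT2, StringTie and the mm10 build. Their versions, the annotation release and the use of strand are not given in the sources here. The deposited values, headed TPM per the file headers, are a signal the authors scaled in each library. Unnamed assembled loci summed to 1000000 in each table, and annotated genes to between 555230 and 684549, so the column exceeds a TPM total. Only the 47643 annotated gene IDs were used. Symbols of 27 IDs that had turned into dates were restored by gene ID, and rows were summed per symbol. TPM keeps no read depth, so depth is unknown and no counting interval is given. Overlapping genes cannot be told apart. Exons of Eng overlap those of Fpgs, and those of Acvrl1, Bmp4, Bmpr1a, Bmp6 and Chrd overlap Gm16031, Gm15217, Gm17110, Txndc5 and Thpo (GENCODE on GRCm38, which is the mm10 assembly). Those of Acvr2a, Tgfbr3, Smad5, Tgfb2 and Bmp5 overlap Orc4, Gm43422, Gm27301, Gm29491 and Gm26903. Tgfb3 exons overlap Gm37804 and Gm48008, and Id4 exons overlap A330033J07Rik and Gm49291.

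Genes that reached 1 TPM in 3 or more libraries were fitted on log2(TPM + 1) by limma 3.58.1 (R 4.3.3) with a mean-variance trend, two-sided, with Benjamini-Hochberg adjustment over all 16436 genes. Differences are caudal minus yolk sac. The fit was tested on simulated data. No set test was made. The genes, lists and tests were chosen with earlier results of these data known. All 40 genes are accounted for, with values in every library for genes that passed, did not overlap or led their step. Of the 90 others, those that passed and up to 3 per list and direction by smallest p are named, except 1 gene that is not reported here. Alternatives were pseudocounts of 0.1 and 5, other filters and scalings, robust empirical Bayes, array weights, a block for the replicate number, and each library left out in turn with the same genes tested. Leaving out yolk sac replicates 1 and 2 together was added after seeing the data.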

Additional observations from a re-analysis of the deposited data

How the results depend on the processing

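Calls were few and moved with single libraries, and the signs of some genes moved as well. Genes that passed as higher in the caudal cells, and as higher in the yolk sac, numbered 57 and 6 with all libraries, 37 and 2 with a pseudocount of 5, 0 and 0 with no filter, 8 and 0 when a mean of 10 TPM was required, 774 and 182 with array weights, and 13 and 0 without yolk sac replicates 1 and 2. Leaving out 1 library gave 2 to 55 and 0 to 6. Of the 40 genes, 1 passed toward the caudal cells, 0 with a pseudocount of 0.1, no filter or a required mean of 10 TPM (where Bmper was not tested), 2 with quantile normalization or median centring (Bmper and Smad6), 9 with array weights, 0 without yolk sac replicates 1 and 2, and 0 to 1 when 1 library was left out. Of the other 90, 1 passed toward the caudal cells, 0 with no filter or a required mean of 10 TPM, 12 (and 1 toward the yolk sac) with array weights, and 0 to 3 when 1 library was left out. The array weights were 4.44 for caudal replicate 2, 3.24 for yolk sac replicate 3 and 0.227 to 0.83 elsewhere. The cause of the other changes was not tested. Over its 17 alternatives Bmper stayed positive (0.85 to 3.81) and passed in 10.

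With the replicate number as a block 0 genes passed in either direction, 0 of the 40 and 0 of the other 90. The same-numbered libraries did not deviate together (correlations across genes of 0.02, -0.02 and -0.0032), and not every library correlated best with its own number. With 3 libraries a tissue, such correlations cannot decide whether the numbers pair the samples.

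Of 455 values of the 26 tested genes under alternatives, 412 kept sign and call, 7 lost a call, 10 gained one and 26 changed sign, none of the last being a passing value. Leaving out 1 library gave ranges of -0.28 to 0.20 for Tgfb1, -0.29 to 0.80 for Bmpr1a, -0.32 to 0.36 for Acvr1, -0.83 to 0.27 for Tgfbr1, -0.037 to 0.25 for Acvr2a, -0.29 to 0.18 for Smad1, -0.24 to 0.10 for Smad4, -1.58 to 0.54 for Id2, -0.19 to 0.42 for Gdf11 and -0.67 to 0.15 for Ctgf. With array weights Tgfb1 was -0.15, Acvr1 0.34, Acvr2a -0.057, Smad1 0.17, Smad4 0.23, Id2 0.73 and Ppm1a 0.0036, and with median centring Tgfb1 was -0.056. With quantile normalization Bmp8a was -0.065 and Gdf11 -0.063. Without yolk sac replicates 1 and 2 Bmp2 was -0.074, Tgfb1 -0.25, Acvr1 0.43, Smad1 0.17, Smad5 -0.088, Smad4 0.078, Id2 1.27 and Ppm1a 0.028, where the lone yolk sac library is assumed to vary like the caudal ones. Values near 1 TPM from 100 cells are imprecise.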
